A study of Homo sapiens with 6 samples.

Results

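Broad H3.3 peaks are stretches of chromatin over 2 kb long that were called as a single peak of the histone variant H3.3 in HEK293T cells, a human embryonic kidney line that carries the SV40 large T antigen. They were chosen by measured width: peaks of the H3.3 list wider than 2000 bp on chromosomes 1 to 22 and X that lay at least 5 Mb from both ends of their hg38 chromosome. The rule kept 133 of the 72287 H3.3 peaks on these chromosomes, which is 0.284% of the 46883 H3.3 peaks at least 5 Mb from chromosome ends and 1.91% of the bases those peaks cover. The widths and the H3.3 values below are therefore a description, and nothing is supported with them. The rule left out another 464 of the 597 H3.3 peaks over 2 kb, because they lay within 5 Mb of a chromosome end.

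The study immunoprecipitated crosslinked, sonicated chromatin of untreated HEK293T cells with 5 antibodies and sequenced 6 libraries, 1 per antibody and 1 of input chromatin, whose values were not used here. Their targets were the variant H2A.Z (1 antibody of CST and 1 of Abcam, giving the H2AZ CST list and the H2AZ Abcam list), H3.3 (EMD/Millipore), histone H4 acetylated at lysine 16 (H4K16ac, CST) and histone H3 dimethylated at lysine 79 (H3K79me2, CST). All libraries came from the same line without any genetic change or treatment named in the labels, and no antibody had a second library. No test between libraries is therefore possible, and each interval given is an exact Clopper-Pearson 95% interval that covers counting error only.

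H3.3 differs from the canonical histone H3 by a few residues and is placed into chromatin outside replication, by the HIRA complex at active genes and by ATRX and DAXX at telomeres and other repeats. H2A.Z marks the nucleosomes beside the starts of active genes. DOT1L places H3K79me2 on transcribed genes, mostly downstream of their starts, and KAT8 acetylates H4K16 in active chromatin. H3.3 is thus known both from gene starts, which it shares with H2A.Z, and from the bodies of transcribed genes.

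H2A.Z parted the broad H3.3 peaks into 76 with peaks of both antibodies, 46 with peaks of neither and 11 with peaks of 1, and the starts inside them are shown first for that reason. The RefSeq promoter windows of build GRCh38.p14, which run from 250 bases before to 50 bases after a gene's start, lay wholly inside a broad peak in 55 cases, for 45 genes. The 7 windows below are shown because H2A.Z peaks of both antibodies covered at least part of the first 4 and no base of the last 3. They run 5′ to 3′ along the gene, and capitals mark the GC box GGGCGG or its reverse complement CCGCCC. The ISYNA1 window (inositol-3-phosphate synthase) is chr19:18438084-18438383 on the minus strand, the NFKB2 window (an NF-kappa-B subunit) is chr10:102394328-102394627 on the plus strand, the CTDSP2 window (a phosphatase of the RNA polymerase II tail) is chr12:57846680-57846979 on the minus strand, and the HSPA2 window (an HSP70 chaperone) is chr14:64540491-64540790 on the plus strand. The windows without H2A.Z are P2RY11 (a receptor for extracellular ATP) at chr19:10111443-10111742 on the plus strand, FAM83E at chr19:48615027-48615326 on the minus strand and PRR22 at chr19:5784697-5784996 on the minus strand. These 3 also lie at the end of a neighbouring gene of the same strand. The P2RY11 window is inside PPAN, which stops at chr19:10112012. The FAM83E and PRR22 windows are beside the stops of RPL18 (chr19:48615331) and DUS3L (chr19:5785140). Such a place was not particular to windows without H2A.Z. The HSD3B7 window (chr16:30984957-30985256) lies just beyond the stop of SETD1A (chr16:30984664) on the same strand. H2AZ CST covered 49.7% and H2AZ Abcam 71.7% of it.
ISYNA1: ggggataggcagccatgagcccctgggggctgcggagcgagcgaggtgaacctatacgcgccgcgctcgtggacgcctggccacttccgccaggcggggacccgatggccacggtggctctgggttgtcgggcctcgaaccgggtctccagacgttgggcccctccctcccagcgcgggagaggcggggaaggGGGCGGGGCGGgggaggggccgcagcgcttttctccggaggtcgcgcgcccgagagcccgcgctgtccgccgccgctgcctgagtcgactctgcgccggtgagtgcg
NFKB2: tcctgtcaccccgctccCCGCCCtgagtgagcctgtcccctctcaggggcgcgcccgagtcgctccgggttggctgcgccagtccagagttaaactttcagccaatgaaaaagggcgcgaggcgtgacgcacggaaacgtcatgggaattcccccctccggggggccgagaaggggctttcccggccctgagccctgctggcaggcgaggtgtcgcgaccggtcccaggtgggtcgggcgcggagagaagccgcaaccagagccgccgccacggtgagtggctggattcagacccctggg
CTDSP2: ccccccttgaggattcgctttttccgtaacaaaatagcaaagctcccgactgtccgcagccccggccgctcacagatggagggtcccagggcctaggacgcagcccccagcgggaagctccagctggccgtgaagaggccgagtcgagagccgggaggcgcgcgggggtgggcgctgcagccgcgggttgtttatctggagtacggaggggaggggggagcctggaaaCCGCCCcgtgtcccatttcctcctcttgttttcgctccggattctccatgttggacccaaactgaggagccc
HSPA2: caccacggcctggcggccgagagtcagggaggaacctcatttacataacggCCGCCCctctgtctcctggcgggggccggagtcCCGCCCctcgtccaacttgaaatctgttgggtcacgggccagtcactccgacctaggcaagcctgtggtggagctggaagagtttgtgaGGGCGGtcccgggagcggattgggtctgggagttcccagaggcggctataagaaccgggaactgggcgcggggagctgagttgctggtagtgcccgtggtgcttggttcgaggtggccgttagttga
P2RY11: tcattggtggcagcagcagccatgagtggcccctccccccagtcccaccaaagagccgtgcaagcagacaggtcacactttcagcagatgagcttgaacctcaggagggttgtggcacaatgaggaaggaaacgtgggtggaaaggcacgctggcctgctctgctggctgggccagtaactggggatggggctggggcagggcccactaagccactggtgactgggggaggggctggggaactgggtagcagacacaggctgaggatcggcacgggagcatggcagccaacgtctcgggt
FAM83E: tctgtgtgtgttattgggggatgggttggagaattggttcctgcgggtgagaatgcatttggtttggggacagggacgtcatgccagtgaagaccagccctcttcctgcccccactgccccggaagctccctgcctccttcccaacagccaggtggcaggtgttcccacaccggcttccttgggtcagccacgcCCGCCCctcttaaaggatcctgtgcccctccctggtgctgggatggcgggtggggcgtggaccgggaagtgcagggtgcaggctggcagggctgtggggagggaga
PRR22: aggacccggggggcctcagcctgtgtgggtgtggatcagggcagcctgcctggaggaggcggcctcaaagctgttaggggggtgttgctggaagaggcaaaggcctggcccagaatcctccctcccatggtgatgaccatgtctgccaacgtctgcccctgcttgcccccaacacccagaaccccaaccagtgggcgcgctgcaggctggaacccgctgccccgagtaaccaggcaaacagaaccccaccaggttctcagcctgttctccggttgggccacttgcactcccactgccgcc

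Windows with and without H2A.Z differed in their median CpG density, with overlapping ranges. Per 100 bases, the ISYNA1 window held 12.7 CpG dinucleotides, the NFKB2 window 9.33, the CTDSP2 window 7.67 and the HSPA2 window 7, against 2.33 in the P2RY11 window and 3 in each of the FAM83E and PRR22 windows. GC content was between 62.7% and 65.0% in the 3 windows without H2A.Z and between 63.7% and 74.7% in the 4 with it. Of all 55 windows, 49 carried H2A.Z of at least 1 antibody, with a median of 8 CpG per 100 bases and a range from 3 to 12.7. The other 6, which belong to CNP, FAM83E, KLC2-AS1, P2RY11, PPP5C-AS1 and PRR22, had a median of 3.17 and a range from 2.33 to 6, so the groups overlapped.

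Set against other starts, the windows inside broad peaks resembled those touched by narrower H3.3 peaks in GC content but held fewer CpG dinucleotides. The median GC content was 67.0% in the 55 windows, 66.7% in the 10047 windows touched by an H3.3 peak of up to 2 kb away from chromosome ends, and 58.7% in all 34961 windows. The median CpG density was 7.33, 9 and 4.67 per 100 bases in the same order. On either strand the motif GGGCGG was found in 70.9%, 73.4% and 45.0% of windows, TATAAA in 1.82%, 3.97% and 11.5%, and CCAAT in 27.3%, 31.5% and 34.6%. For coding genes alone, the 33 windows inside broad peaks and all 22131 windows both had a median of 7 CpG per 100 bases. Their median GC content was 67.0% and 62.3%, and GGGCGG was found in 72.7% and 56.3%. None of the 3 motifs contains another, and a match is a run of letters, not a bound site.

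By the values that the authors' peak caller gave, the broad peaks were also strong, although the rule did not ask for it. Their width ranged from 2001 to 7329 bp with a median of 2388 bp, against a median of 301 bp for all H3.3 peaks away from chromosome ends. A total of 24 were over 3000 bp, 8 over 4000 bp and 2 over 5000 bp. The authors' fold enrichment at the summit ranged from 7.98 to 49.9 with a median of 20.9, against 7.48 for all. The authors' −log10 q-value ranged from 14.3 to 220, with a median of 52.5 against 10.1. A total of 107 broad peaks were in the top 10% of −log10 q and 19 were in the top 1%. The highest −log10 q belonged to a peak of 2143 bp over MYL11, SEPTIN1 and ZNF48 (chr16:30377489-30379631), which was near the narrow end of the set. The next highest, 164, belonged to a peak of 4578 bp in LONP1.

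**Figure D1:**
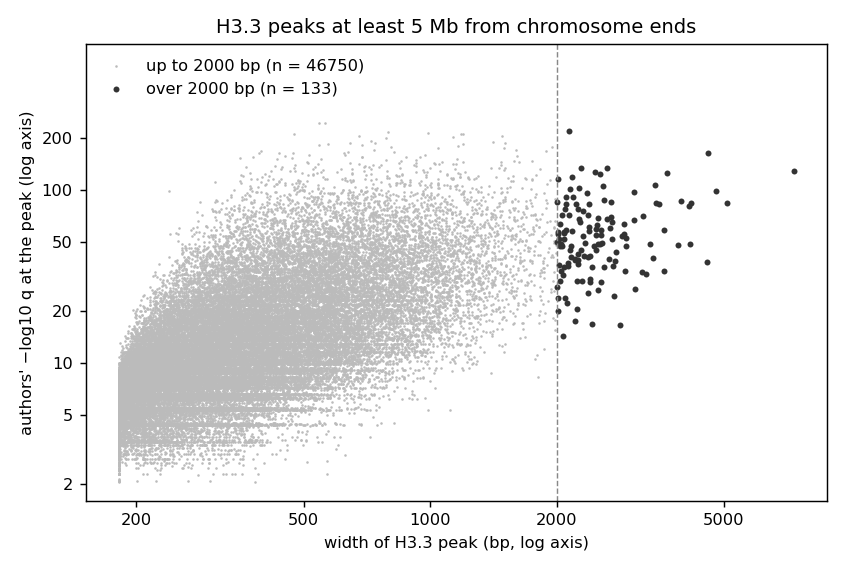
Width of each H3.3 peak at least 5 Mb from chromosome ends (x axis, bp, log scale) against the authors' −log10 q-value (y axis, log scale), 1 point per peak. The 133 peaks over 2000 bp (black, right of the dashed line) all lie above the median of all these peaks, 10.1.

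The threshold fell inside a continuous range of widths. The narrowest broad peaks were those of GSTP1 and PPP5C-AS1, both of 2001 bp, and of CBX6, of 2007 bp. The widest peaks just under the threshold were those of TMC8 (1996 bp), HSPB1 (1992 bp) and BCOR (1988 bp).

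Many broad peaks lay close to other H3.3 peaks. Another H3.3 peak lay less than 1 kb away for 108 of the 133, the median distance to the next H3.3 peak was 194 bp, and a median of 10 further H3.3 peaks lay within 10 kb. A total of 5 broad peaks had no other within 10 kb. The same values for narrower H3.3 peaks are not given here, so nothing particular to broad peaks is read from these. When H3.3 peaks less than 200 bp apart were joined, 436 stretches exceeded 2 kb, and 130 of these held a broad peak. A joined stretch of 9348 bp over RPL36 and LONP1 (chr19:5690197-5699544) took in 3 H3.3 peaks, 2 of them broad. CORO1B, at 5286 bp in 6 peaks, and STAB1 with NT5DC2, at 5512 bp in 6 peaks, formed long stretches without any single peak over 2 kb.

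Broad peaks lay on 18 of the 23 chromosomes and were most frequent on chromosome 19, which held 35 of 133 (26.3%, interval 19.1% to 34.7%) against 11.6% of all H3.3 peaks away from chromosome ends and 17.8% of those of 1 to 2 kb. Chromosomes 17 and 22 held 14 each. The share on chromosome 22, 10.5% (interval 5.88% to 17%), stood beside 5.78% of all these peaks, and that on chromosome 17, also 10.5%, beside 8.05%. Chromosomes 4, 15, 18, 20 and 21 held none. Within 100 kb of each other, 42 broad peaks formed 19 groups, of which 4 had 3 members. Among these were RPS6KB2 with PITPNM1 and GSTP1 on chromosome 11, the RPL36, LONP1 and PRR22 peaks on chromosome 19, and PCOLCE with GNB2 and GIGYF1 on chromosome 7.

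The 8 widest broad peaks show the main forms. The widest, 7329 bp at chr19:10109242-10116570, ran from PPAN, a ribosome biogenesis factor, through P2RY11 and into EIF3G, a subunit of translation initiation factor EIF3. H4K16ac covered 48.2% of it in 8 separate peaks and H3K79me2 72.8%, while H2AZ CST covered 2.32% and H2AZ Abcam 2.58%. The peak of 5084 bp in PTOV1 (chr19:49853951-49859034) and that of 4578 bp in LONP1 (chr19:5692885-5697462), the gene of a mitochondrial protease, had no H2A.Z of either antibody. H3K79me2 covered 96.0% and 96.1% of them, and H4K16ac 40.4% and 53.4%. ZBTB17 (4561 bp, chr1:15941772-15946332), which encodes the MYC partner MIZ1, and TECR with NDUFB7 (4174 bp, chr19:14562424-14566597), which encode an enzyme of fatty acid elongation and a subunit of respiratory complex I, also had no H2A.Z.

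**Figure D2:**
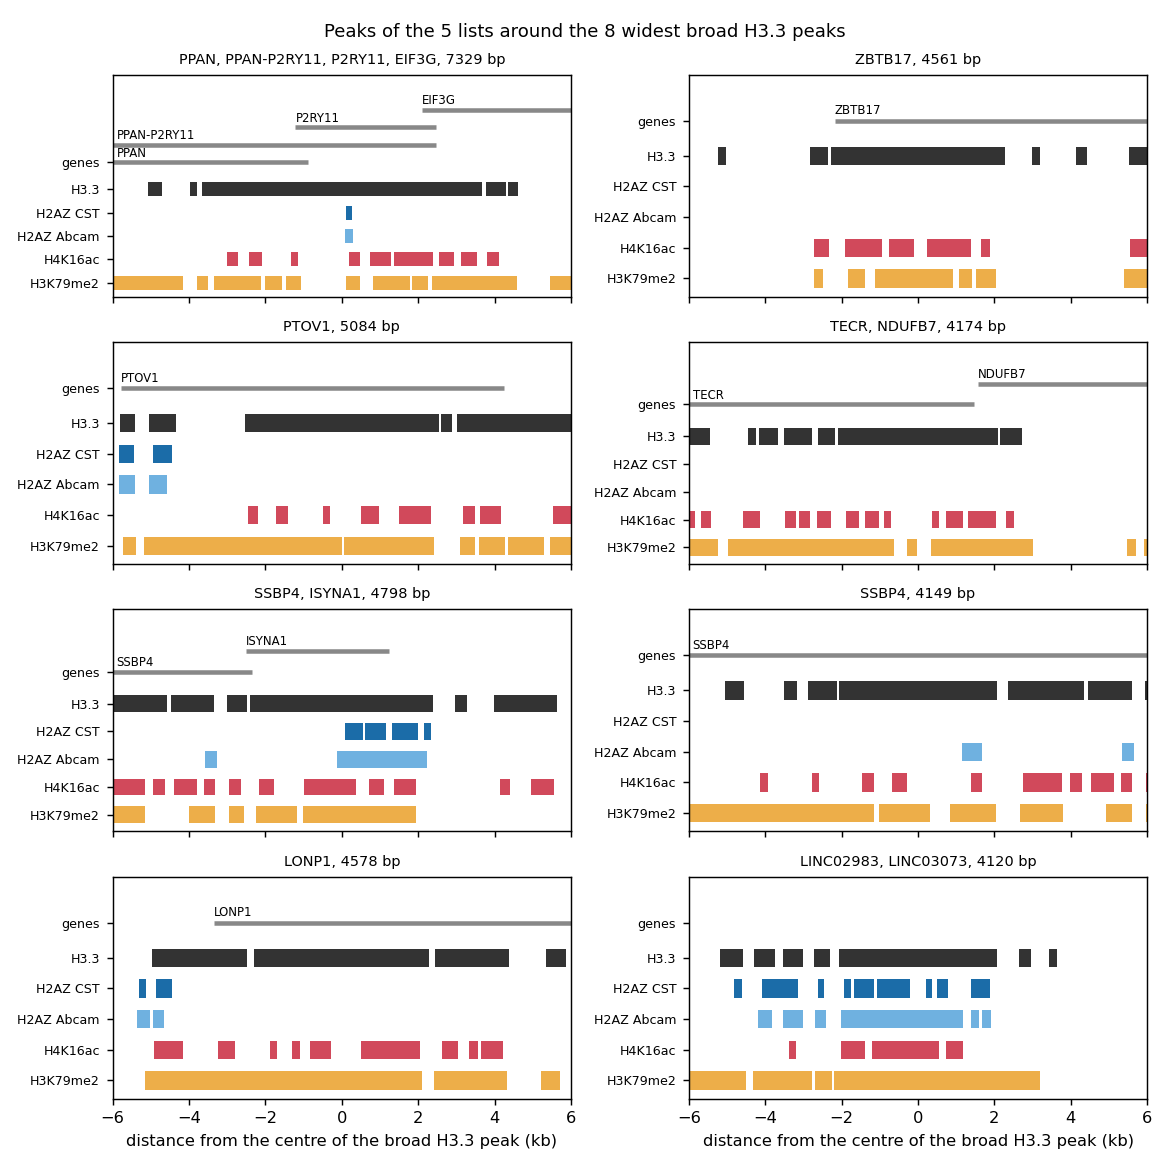
Peaks of the 5 lists (coloured bars) and spans of the protein-coding genes that overlap the broad peak (grey lines) around the 8 widest broad H3.3 peaks, by distance from the centre of the broad peak in kb. In PTOV1, LONP1, ZBTB17 and TECR the broad H3.3 peak has no H2A.Z of either antibody under it, while H4K16ac lies there in several separate peaks.

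The other 3 of the 8 had H2A.Z of at least 1 antibody over part of their length. The peak of 4798 bp over ISYNA1 (chr19:18434508-18439305) held the ISYNA1 starts, and H2AZ CST covered 39.6% and H2AZ Abcam 49.1% of it. The peak of 4120 bp over the long noncoding RNA genes LINC02983 and LINC03073 (chr7:5426374-5430493) was covered to 60.5% and 88.3%, and it lay wholly within a single H3K79me2 peak. The peak of 4149 bp within SSBP4 (chr19:18425906-18430054) had H2AZ Abcam over 13.0% and no H2AZ CST.

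At the H3.3 summits, with all peaks of each list counted, H4K16ac was found in more of the broad peaks than the other marks. A peak of H4K16ac lay within the 500 bp around the summit in 116 of 133 broad peaks (87.2%, interval 80.3% to 92.4%), against 56.5% of all H3.3 peaks away from chromosome ends. H3K79me2 was there in 84 (63.2%, interval 54.4% to 71.4%), against 37.4%. H2AZ CST was there in 69 (51.9%, interval 43.1% to 60.6%), against 47.3%, and H2AZ Abcam in 68 (51.1%, interval 42.3% to 59.9%), against 48.1%. The intervals for both H2A.Z antibodies include the shares of all H3.3 peaks, and those of H4K16ac and H3K79me2 do not. The lead of H4K16ac over H3K79me2 depended on how a companion was counted: with the 10000 strongest peaks of each other list the shares were 35.3% and 32.3%, and when at least 50% of the broad peak had to be covered, each mark was found in 73 of 133 (54.9%).

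Across width classes the lists parted. The share of H3.3 summits with H4K16ac was 44.8% in peaks of up to 300 bp, 75% at 500 to 1000 bp, 84.9% at 1500 to 2000 bp and 87.2% above 2000 bp. For H3K79me2 the same classes had 28.8%, 52.5%, 64.9% and 63.2%. For H2AZ CST they had 37.9%, 63.1%, 64.5% and 51.9%, and for H2AZ Abcam 38.5%, 63.8%, 65.6% and 51.1%. Both H2A.Z lists were thus more frequent at wider peaks up to 2000 bp and less frequent at the broad peaks, with the interval of H2AZ CST above 2000 bp (43.1% to 60.6%) overlapping that at 1500 to 2000 bp (58.6% to 70.1%). Wider peaks also had higher H3.3 values, and the part of that in these shares was not tested.

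**Figure D3:**
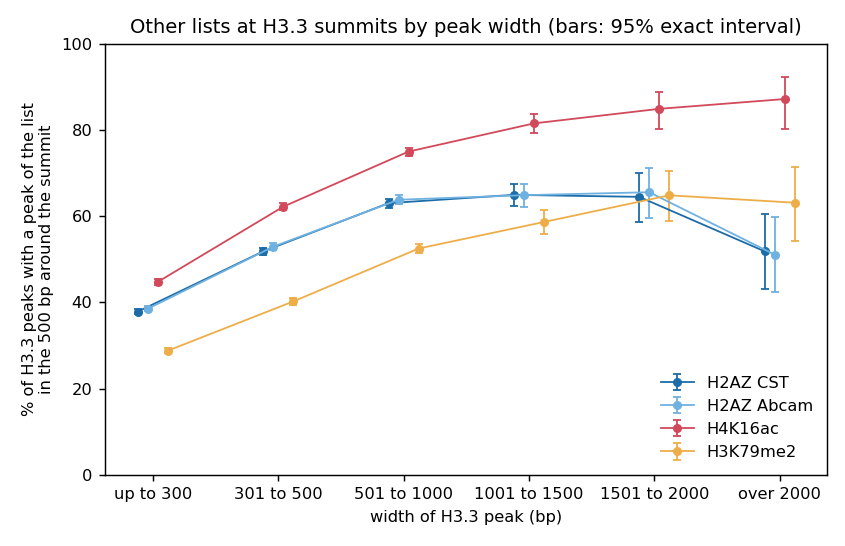
Share of H3.3 peaks with a peak of each other list in the 500 bp around the H3.3 summit (y axis, %), by width of the H3.3 peak (x axis, bp), with exact 95% intervals as bars. H4K16ac ends at 87.2% in peaks over 2000 bp, while both H2A.Z lists are at 64.5% and 65.6% at 1500 to 2000 bp and at 51.9% and 51.1% above.

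How much of each broad peak was covered differed as well. The median share of bases covered was 54.2% for H4K16ac and 59.97% for H3K79me2, against 15.7% for H2AZ CST and 16.1% for H2AZ Abcam. In H3.3 peaks of 1500 to 2000 bp the medians were 55.0%, 62.1%, 46.7% and 56.5% in the same order. The medians of H4K16ac and H3K79me2 were thus near those of the broad peaks, and those of both H2A.Z lists were higher. Over all broad peaks together, H4K16ac covered 54.9% of bases, H3K79me2 53.1%, H2AZ CST 28.9% and H2AZ Abcam 30.9%. H4K16ac was present in pieces: 318 of its peaks lay in the broad peaks, and no broad peak lay wholly within 1 of them. H3K79me2 was present in longer runs: 20 broad peaks lay wholly within a single H3K79me2 peak, among them SLC25A1 (the mitochondrial citrate carrier), RUSC1 and RPL13A. The H3K79me2 peak around SLC25A1 was 8139 bp wide.

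Every broad peak overlapped at least 1 of the 4 other lists, and 57 overlapped all 4. Among all H3.3 peaks away from chromosome ends, 17.6% overlapped none and 15.5% overlapped all 4, and these are far narrower, with less room for an overlap. H2A.Z of both antibodies was present in 76 broad peaks, of only 1 antibody in 11 and of neither in 46. Of the 46, 30 had both H4K16ac and H3K79me2, 13 had H4K16ac without H3K79me2 and 3 had H3K79me2 without H4K16ac. Those 3 were RPL3, the peak of 2287 bp in ZNF503 and the pseudogene C19orf48P with the small nucleolar RNA genes SNORD88A and SNORD88B.

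**Figure D4:**
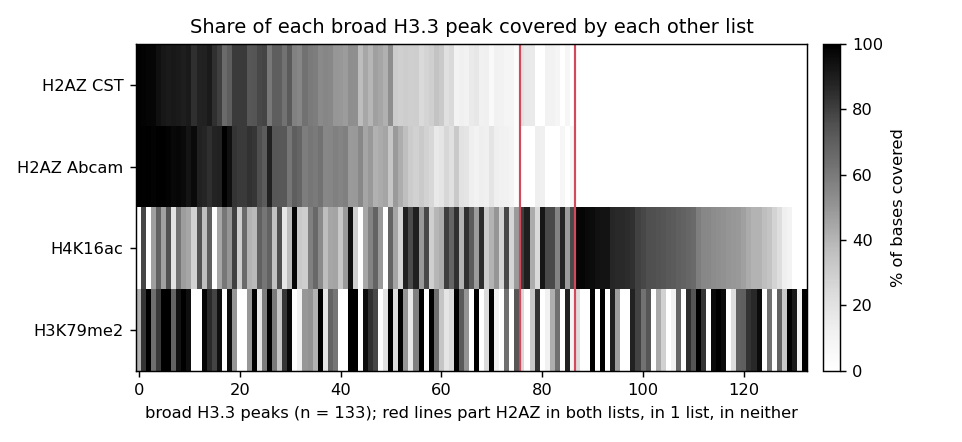
Share of bases of each of the 133 broad H3.3 peaks (columns) covered by each other list (rows), from 0% (white) to 100% (black). Red lines part the 76 peaks with H2A.Z in both lists, the 11 with it in 1 list and the 46 with it in neither; columns are sorted by H2A.Z and then by H4K16ac.

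The broad peaks most covered by H2AZ CST lay at NFKB2, RFPL2, MYC, RGS20 and a place on chromosome X with no annotated gene. Those most covered by H2AZ Abcam were NFKB2, MYC, CTDSP2, the same place and another without an annotated gene on chromosome 12. The last was covered to 100% by H2AZ Abcam and to 65.6% by H2AZ CST. NFKB2 (2110 bp, chr10:102394064-102396173), one of the genes whose start is shown, was covered to 100% by both H2A.Z lists, had no H4K16ac and had H3K79me2 over 40.9%. The peak at MYC (2074 bp), the growth-promoting transcription factor, was covered to 98.0% by H2AZ CST and 99.9% by H2AZ Abcam, likewise without H4K16ac, but H3K79me2 covered all of it. CTDSP2 (2108 bp, chr12:57844958-57847065) had H2AZ CST over 92.0%, H2AZ Abcam over 99.95%, H3K79me2 over 100% and H4K16ac over 46.1%. RFPL2 (2031 bp, chr22:32202654-32204684) had 98.5%, 99.6%, 82.9% and 77.9% for H2AZ CST, H2AZ Abcam, H3K79me2 and H4K16ac. A peak of 2859 bp with no annotated gene, on chromosome X at 40012562 to 40015420 with BCOR as the gene of the nearest coding end, had H2AZ CST over 94.2% and H2AZ Abcam over 99.96%.

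An H4K16ac peak overlapped 94.0% of broad peaks, near the 96.1% of H3.3 peaks of 1500 to 2000 bp. The 8 without it were RPL3, PRR36, the pair PRRT1 and PPT2, the peak of 2287 bp in ZNF503, C19orf48P, NFKB2, MYC and LMTK3. The other broad peak in ZNF503, of 2168 bp, had H4K16ac over 58.4%. Of the 8, 5 had H2A.Z of both antibodies, namely PRR36, PRRT1 with PPT2, NFKB2, MYC and LMTK3. LMTK3 had H2A.Z alone. At the other end, H4K16ac covered 97.9% of the peak of 3593 bp over PRR22 and DUS3L (chr19:5781859-5785451), 97.7% of that in DEGS2, a sphingolipid desaturase gene, and 96.4% of that in LZTR1, none of which had H2A.Z. A further peak (chr22:19873639-19875895) ran across the 3′ end of TXNRD2, the mitochondrial thioredoxin reductase gene, with its summit 229 bp beyond that end. It had H4K16ac over 97.7% together with H2AZ CST over 57.2% and no H3K79me2.

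H3K79me2 was lacking in 31 broad peaks. Its peaks overlapped 76.7% of broad peaks, near the 72.0% of H3.3 peaks of 1500 to 2000 bp. The widest without it lay in SLC12A4, a potassium chloride cotransporter gene (3190 bp, chr16:67944505-67947694), and PTPN23, a phosphatase gene (3068 bp, chr3:47408536-47411603). Next were SETD1A with HSD3B7 (2920 bp, chr16:30983005-30985924), SRM, the spermidine synthase gene (2904 bp, chr1:11052649-11055552), and PCDH17 (2890 bp, chr13:57632211-57635100). All 5 had H4K16ac, over 72.3%, 94.0%, 77.4%, 36.9% and 26.2% in that order. SETD1A encodes an H3 lysine 4 methyltransferase. The peak of SETD1A with HSD3B7, which held the HSD3B7 start, and that of PCDH17 also had H2A.Z of both antibodies. The peaks of SLC12A4, PTPN23 and SRM had none.

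Within the broad peaks that had H2AZ CST, the median cover of both marks was higher in the bases that H2AZ CST covered. In the 82 peaks with both H2AZ CST-covered and other bases, H4K16ac covered a median of 65.5% of the former and 37.8% of the latter, and it was higher in the H2A.Z bases of 59 peaks and lower in 19. H3K79me2 covered medians of 83.4% and 41.8%, and it was higher in 43, lower in 9 and equal in the rest. Bases under H2AZ Abcam alone count here as other bases, and the same values for narrower H3.3 peaks are not given. Pooled over bases the contrasts were smaller: 58.5% and 47.5% for H4K16ac, and 64.6% and 46.2% for H3K79me2.

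Listed gene starts lay in a minority of the broad peaks. A RefSeq start lay inside 42 broad peaks (31.6%, interval 23.8% to 40.2%), against 28.3% of H3.3 peaks of 1 to 2 kb and 10.5% of all away from chromosome ends. In another 11 the only coding-gene ends inside belonged to genes without an entry in the start table, and 80 (60.2%) had neither. The 80 include the peaks in MYC, GATA4 and RGS20 on chromosome 8, where the start table has no entry. Without chromosome 8 the share with a start inside was 42 of 130 (32.3%). The summit lay in a coding gene for 70 of the 80, and in one of known strand for 58. The summit itself was within 1 kb of a start in 30.1%, against 38.1% of peaks of 1 to 2 kb and 30.6% of all. In the 42 peaks with a start inside, the nearest start was a median of 290 bp from the summit.

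Starts and H2A.Z went together inside the broad peaks. Of the 65 starts inside them, which belong to 51 genes, 59 (90.8%) had H2AZ CST within 250 bp, and 59 also had H2AZ Abcam. Several of these starts share a broad peak, and the same share over starts outside the broad peaks is not given here. At the H3.3 summit, H2AZ CST was present in 78.6% of broad peaks with a start inside (interval 63.2% to 89.7%). It was present in 37.5% of the 80 without a listed start or an unplaced gene end (interval 26.9% to 49.0%). For H2AZ Abcam the shares were 83.3% and 36.3%. H4K16ac did not divide in this way, at 85.7% and 88.8%, and H3K79me2 stood at 66.7% and 58.8%. The peaks of 1 to 2 kb had H2AZ CST at the summit in 89.3% with a start and 53.1% without. All H3.3 peaks away from chromosome ends had it in 89.4% and 41.6%, so the link was not particular to broad peaks.

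Gene stops also lay in the broad peaks. A broad peak lay within 1 kb of either boundary of a protein-coding gene in 84 cases (63.2%, interval 54.4% to 71.4%), against 57.5% of peaks of 1 to 2 kb and 37.6% of all H3.3 peaks away from chromosome ends. For genes of known strand, the place where the gene stops lay inside 31 broad peaks (23.3%), against 5.25% of peaks of 1 to 2 kb, and wide peaks reach more gene ends by their size alone. The summit, which has no such advantage of size, was within 1 kb of a gene stop in 29 broad peaks (21.8%, interval 15.1% to 29.8%), against 10.4% of peaks of 1 to 2 kb (interval 8.97% to 12%) and 5.90% of all. Genes around the summits of broad peaks were shorter, as given below, and the part of that in this share was not tested.

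Along genes, the summits of broad peaks without H2A.Z lay towards the end. The summit was within a protein-coding gene for 107 of 133 (80.5%), and within one of known strand for 88. Measured from the start as 0%, the median position of these 88 was 67.8%, against 24.8% for peaks of 1 to 2 kb and 33.7% for all. Of the 38 placed summits of peaks with H2A.Z in neither list, 32 (84.2%) lay past the midpoint of the gene and 19 lay in its final 20%, with a median of 78.9%. Of the 43 with H2A.Z in both lists, 15 (34.9%) lay past the midpoint and 18 lay in the first 20%. Peaks of 1 to 2 kb without H2A.Z had a median position of 77.1%, with 75.3% past the midpoint, so the late position was shared by narrower peaks that lack H2A.Z.

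**Figure D5:**
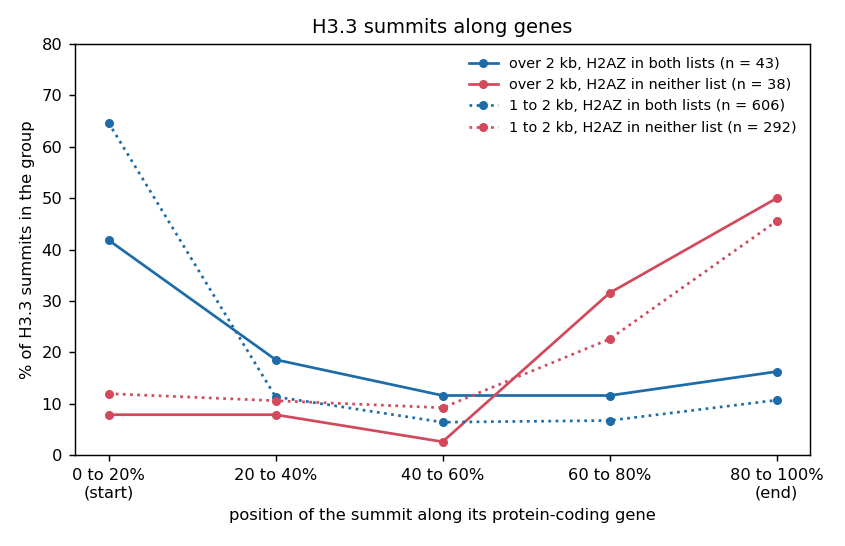
Share of H3.3 summits (y axis, %) in each 20% stretch of the protein-coding gene that holds them (x axis, from start to end), for broad peaks (solid) and peaks of 1 to 2 kb (dotted), with H2A.Z in both lists (blue) or in neither (red). Of the broad peaks without H2A.Z, 50% are in the final 20% of the gene, against 16.3% of those with H2A.Z in both lists.

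The genes that held broad peaks were short: the median length of the gene around the summit was 11843 bp, against 24802 bp for peaks of 1 to 2 kb. Within genes of up to 20 kb the late position remained, at 90.9% past the midpoint for the 22 broad peaks without H2A.Z and 73.2% for the 138 such peaks of 1 to 2 kb. In longer genes the values were 75% of 16 and 77.3% of 154. Examples of late summits without H2A.Z were DHX30, an RNA helicase gene (99.2% of the way along), OTUB1, a deubiquitinase gene (97.5%), SRM (93.9%), LONP1 (90.4%) and KHSRP, an RNA-binding protein gene (83.5%). The exceptions in the first 20% of a gene were FAM83E (0.1%) and the pair of peaks in ZNF503 (2.6% and 4.3%). The FAM83E peak also held the stop of RPL18. Both summits in ZNF503 lie in a gene span of 122192 bp, 2766 and 4820 bp from the nearest listed start.

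In all, 151 of 17301 protein-coding genes away from chromosome ends (0.873%) had at least 1 base in a broad peak. Their median length was 10946 bp, against 26262 bp for all 17301. Of the broad peaks, 92 touched 1 coding gene, 30 touched several and 11 none, and 3 touched no annotated gene of any kind. Broad peaks covered 19 coding genes over at least 50% of their length and 8 over at least 90%. They covered 6 whole: AMIGO3, BORCS6, MIF, P2RY11, PRR22 and RPL36. MIF encodes a cytokine, and RPL36 a protein of the large ribosomal subunit. Among genes of at least 2 kb, AMIGO3 and P2RY11 were followed by COMTD1 (96.8%), ISYNA1 (96.8%), HSD17B1, an oestradiol-forming dehydrogenase gene (89.8%), SLC25A1 (86.9%), RBMXL3 (77.0%), SIX5, a homeobox factor gene (75.7%), GSTP1, a glutathione transferase gene (69.1%), and the readthrough gene PPAN-P2RY11 (68.0%).

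These covered genes differed in what else they carried. H3K79me2 covered all of COMTD1, HSD17B1 and SLC25A1, 93.6% of RBMXL3 and 56.8% of AMIGO3. H2AZ CST covered 74.9% of COMTD1 but 5.4% of SLC25A1, and it did not touch RBMXL3. By bases rather than by share, PTOV1 led with 6325 bp in broad peaks, followed by PPAN-P2RY11 with 6131, LONP1 with 5433, ZBTB17 with 4464, ZNF503 with 4455, SSBP4 with 4204, P2RY11 with 3680, ISYNA1 with 3626, KHSRP with 3597 and GIGYF1 with 3590. The H3.3 list as a whole covered 76.7% of PTOV1, 45.9% of LONP1, 49.9% of SSBP4 and 54.0% of GIGYF1.

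Of 19 lists of genes, cytosolic ribosomal protein genes had the most members in broad peaks, with 5 of 73 (6.85%, beside 0.873% of all coding genes). RPL3, RPL13A, RPL18 and RPL36 are described here. The RPL13A peak (2147 bp, chr19:49489733-49491879) had H3K79me2 over 100%, H4K16ac over 9.5% and no H2A.Z, and it held the small nucleolar RNA genes SNORD32A, SNORD33, SNORD34 and SNORD35A. The RPL3 peak (3888 bp, chr22:39310209-39314096), which holds SNORD83B, had H3K79me2 over 11.1% and neither H4K16ac nor H2A.Z. The RPL18 peak, shared with FAM83E, had H3K79me2 over 32.8%, H4K16ac over 12.5% and no H2A.Z. Of these 4, only the RPL36 peak had H2A.Z, with H2AZ CST over 16.8% and H2AZ Abcam over 10.8%.

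Other lists had few members. The zinc finger list had ZNF48, ZNF503 and ZNF768, which are 3 of 421 (0.713%). A single member was found for H3 methyltransferase genes (SETD1A, 1 of 20), MYC and immediate early genes (MYC, 1 of 37), forkhead, SOX, GATA and T-box factors (GATA4, 1 of 69), homeobox factors outside the HOX clusters (SIX5, 1 of 102), splicing factors (HNRNPA0, 1 of 61), translation factors (EIF3G, 1 of 61) and heat shock and DNAJ chaperones (HSPA2, 1 of 69). No broad peak touched a HOX gene, a replication-dependent histone gene, a gene of a histone variant or H3.3 chaperone, a clustered protocadherin, a tubulin or actin gene, a keratin gene, an imprinted gene, a gene of the neuronal list, a tRNA gene or a spliceosomal snRNA gene. These shares lie near the background of 0.873% or rest on 1 gene, and nothing is read from them.

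Among noncoding genes, broad peaks touched 29 of 15702 long noncoding RNA genes (0.185%), 8 of 1115 small nucleolar RNA genes (0.717%) and 5 of 1605 microRNA genes (0.312%). These shares lie below the 0.873% of coding genes, and nothing is read from them. All 8 small nucleolar RNA genes lay in 4 broad peaks: 4 in that of RPL13A, 2 in that of C19orf48P, SNORD105B in that of PPAN and SNORD83B in that of RPL3. None of these 4 peaks had more H2AZ CST than the 2.32% at PPAN, and 50 of the 133 broad peaks had no H2AZ CST. Among the microRNA genes were MIR4749 in PTOV1, MIR3940 in KHSRP and MIR1226 in DHX30.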

How the data were processed

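The values used are peak lists of 5 antibodies, 1 library each, from HEK293T cells. The submitters' processing notes name MACS2 2.1.0 and Bowtie 1.1.2 beside Trimmomatic 0.33 and bcl2fastq 2.17, with build hg38. For settings, read depth and use of the input library, the sources used here give nothing. The authors deposited, per peak, a position, a summit, a fold enrichment (a linear ratio), and a −log10 p-value and −log10 q-value. The authors' deposited integer score was not used. The fold and −log10 q only describe peaks within the H3.3 list or filter a list.

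Genes, starts and promoter sequences came from RefSeq tables of GRCh38.p14, the assembly of hg38. The start table gave a strand for 15811 of 19970 protein-coding genes and had no entry on chromosome 8. Exons, introns and untranslated regions were not assigned. The broad peaks and the gene lists were chosen with earlier results of these data known. Peaks and genes named in the text are the 15 widest, the 10 strongest, the most covered and the widest uncovered for each list, up to 6 per gene list, groups within 100 kb and those at the threshold. Others named as members of small counts, long joined stretches, summits along genes and small RNA genes were chosen after their values were seen. A summit window is 500 bp. Interval arithmetic (Python 3.11.15, pandas 2.3.3) was checked on simulated peaks. Intervals are exact binomial (SciPy 1.17.1). Results on a few genes are not reported here.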

Additional observations from a re-analysis of the deposited data

How the results depend on the processing

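The number of broad peaks, 133, was 412 with a width above 1500 bp, 24 above 3000 bp, 597 with no distance from chromosome ends asked and 436 after joining peaks less than 200 bp apart. In the order H2AZ CST, H2AZ Abcam, H4K16ac, H3K79me2, the shares at the summit (51.9%, 51.1%, 87.2%, 63.2%) became 62.4%, 60.2%, 94.0% and 76.7% for an overlap anywhere, 24.1%, 25.6%, 35.3% and 32.3% with the 10000 strongest peaks of the other list, and 33.3%, 41.7%, 95.8% and 79.2% in the 24 peaks above 3000 bp. Asking for 50% of the peak covered gave 31.6%, 32.3%, 54.9% and 54.9%. With chromosome ends included, H2AZ CST was at 36.3% and H2AZ Abcam at 36.0%. The share within 1 kb of a coding-gene end, 63.2%, was 35.3% for the summit, 37.6% for an end inside the peak, 75.9% with all annotated genes and 49.7% with chromosome ends included. The 19 genes covered over at least 50% were 8 at 90% and 9 with peaks above 3000 bp. Of the 39 alternatives, 12 stayed within the main interval, or within 1.5 times a count, among them the 54.9% of H3K79me2 with 50% of the peak covered. They include the alternatives for a start inside, which were chosen after seeing the data. Each antibody has 1 library and the depth is unknown, so variation between cultures was not measured.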
